A study of Rattus norvegicus with 8 samples.

Results

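The SMAD and ID genes described here were Smad1, Smad2, Smad3, Smad4, Smad5, Smad6, Smad7, Id1, Id2 and Id3, 10 of the 14217 rat genes that a probe set of the array named singly. Members were chosen by name: every probe set whose platform annotation gave exactly 1 of the 10 symbols was taken, which gave 22 probe sets. RNA came from granulosa cells, the somatic cells of the ovarian follicle that surround the oocyte, and was measured on 8 one-colour Affymetrix arrays. Per the series' design text, immature rats first received eCG, a gonadotropin that makes follicles grow, and after 24 h either an antibody against eCG, which sent follicles into atresia, or pre-immune serum. None of the oocytes of the antibody group (0%) and 30 to 50% of those of the serum group developed to term. No label placed any of the 8 arrays in either treatment, so no treatment comparison was made, and arrays are named by their label number. The labels do not say whether each array held cells of 1 animal or of several.

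SMAD proteins carry signals of the TGF-beta family from the cell surface to the nucleus. Activated receptors phosphorylate receptor SMADs, which join the common partner Smad4 and act on target genes, while the inhibitory SMADs, themselves induced by the pathway, damp it. ID proteins are helix-loop-helix factors without a DNA-binding region that hold E proteins inactive, and their genes are textbook targets of BMP signals. In the follicle the pathway relays activins and AMH made by granulosa cells and GDF9 and BMP15 made by the oocyte.

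Signals were scaled between arrays, and values under an array's 40th percentile, called the floor (273 to 471 over the arrays), were raised to it before spreads were taken. A probe set counted as measured when it lay above its array's median on at least 2 arrays. The inner range of a probe set is its second highest array over its second lowest, so 1 extreme array cannot set it, and the number of arrays limits its precision. Over 10513 measured genes, deviations from gene medians correlated at 0.58 between arrays 2074 and 2076, against -0.30 to 0.07 for the 27 other pairs of arrays (across genes, which are not independent). Results are therefore also given for arrays 2194 to 2199 alone. Of 10 granulosa markers 9 were measured, all but Fshr, for which no probe set was analysed here, and 5 of the 9 reached an inner range of 2-fold as defined above, against 29.8% of all measured genes: Cyp19a1 (4.204-fold), Hsd17b1 (2.44), Amh (2.43), Inha (2.33) and Inhbb (2.27). Whichever single array was left out, 1 of the 9, Cyp19a1, reached 2-fold, against 7.24% of all measured genes. The summed signal of the 9, 239090 to 349978, was mostly that of Cyp11a1 (117741 to 227783), Inha and Nr5a2.

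Most SMAD genes had a spread over the arrays below that of the median gene, and Id1 and Id3 one above it, while the sides of Smad1, Smad6 and Id2 depended on which genes they were set against. Of the 10 genes 9 were measured, and of the 22 probe sets 17. In its brightest probe set only Id3 of the 9 reached an inner range of 2-fold, against 29.8% of all measured genes. The median inner range was 1.41-fold over the 6 measured SMAD genes and 1.64-fold over all 9, against 1.71-fold over all measured genes. Below that overall median lay 6 of the 9, namely Smad1 to Smad5 and Id2, and above it Smad6, Id1 and Id3. Against genes of like mean signal (1 of 5 equal groups by that mean) 5 of the 9 were narrower than the middle gene, Smad2 to Smad6. Smad1 was wider than 58.9% of such genes, Id2 than 64.8%, Id1 than 72.1% and Id3 than 90.1%, and Smad6 than 47.1%. Counted by probe set, 4 of the 17 measured reached 2-fold, against 31.7% of all measured probe sets with 1 gene. These were the probe set of Id3, the dimmer one of Id2 and both dim ones of Smad5. Over arrays 2194 to 2199 alone 0 of the 9 genes and 2 of the 17 probe sets reached 2-fold, against 11.5% of genes and 12.4% of probe sets in all, and the 2 were the dimmer one of Id2 and 1369276_at of Smad5. The arrays measure RNA of a cell population, in which fewer cells of a type and less RNA per cell cannot be told apart.

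**Figure D1:**
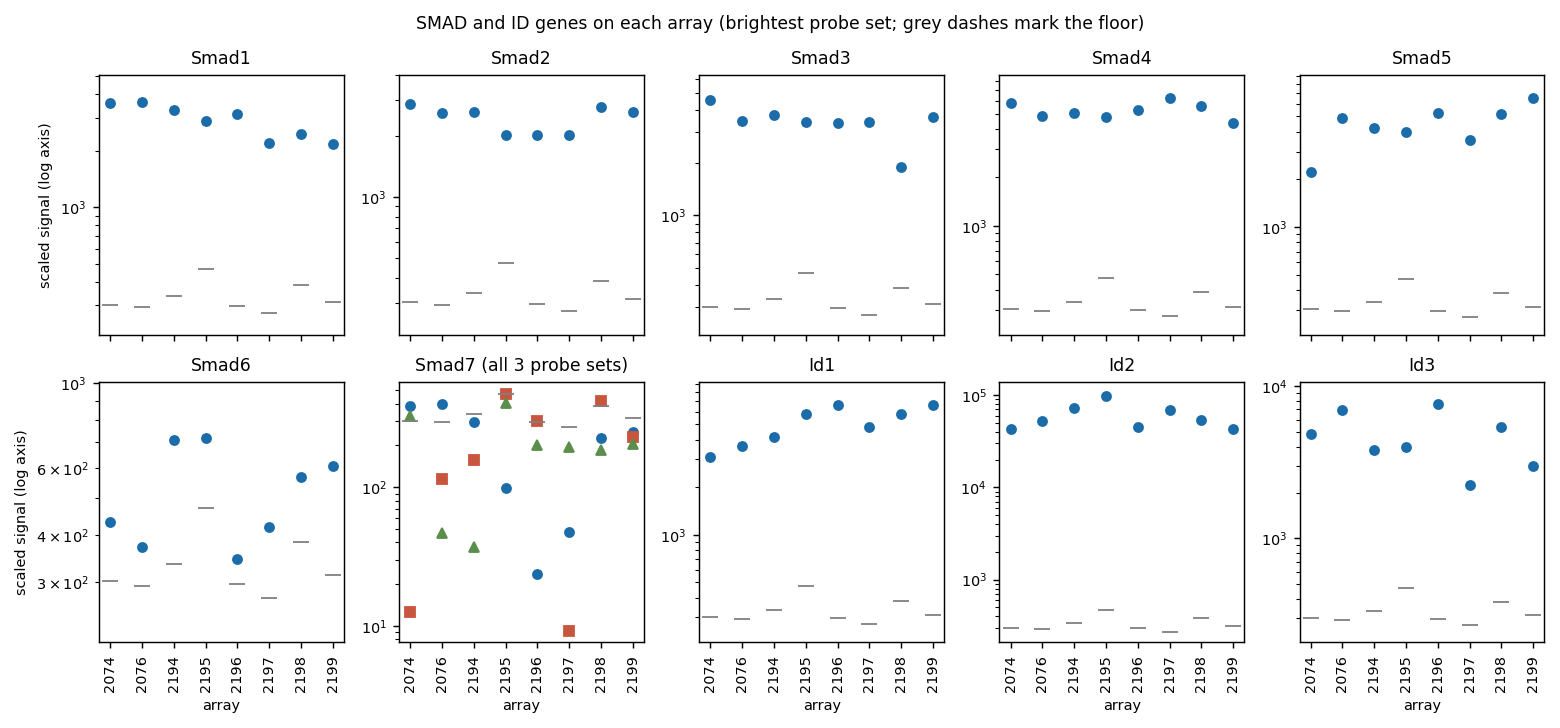
Scaled signal (log axis) of the brightest probe set of each gene on each of the 8 arrays, with each array's floor as a grey dash. For Smad7 all 3 probe sets are drawn. Smad7 lies near or below the floor throughout, Smad6 just above it, and the other 8 genes well above it on every array.

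**Figure D2:**
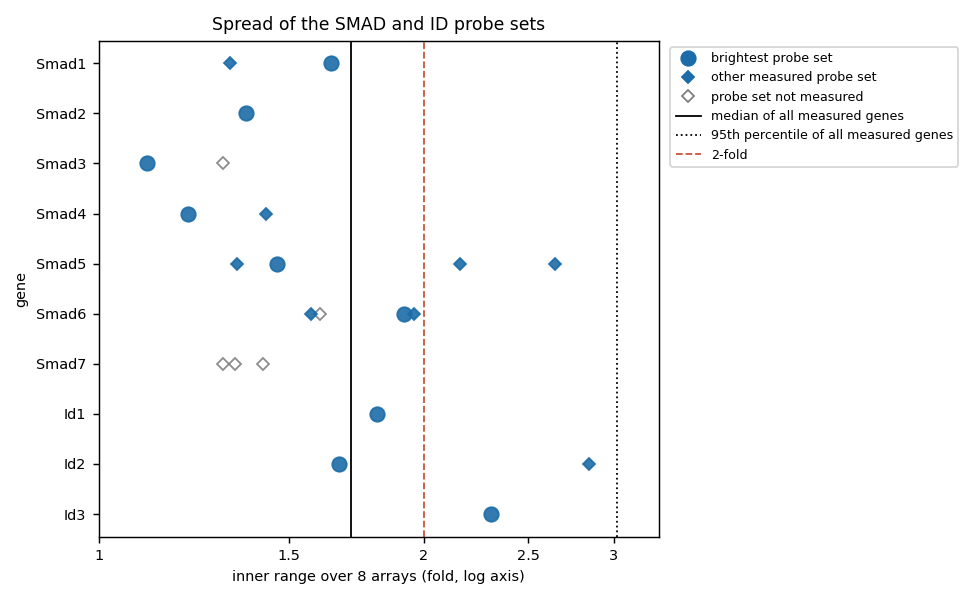
Inner range over 8 arrays (fold, log axis) of each of the 22 probe sets, by gene. Open diamonds are probe sets that were not measured, the solid line is the median of all measured genes (1.71-fold), the dotted line their 95th percentile (3.02-fold) and the dashed line 2-fold. No member probe set passes the 95th percentile.

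Smad1 and Smad5, the receptor SMADs of BMP and AMH signals, were read by 2 and 4 probe sets. The brightest probe set of Smad1 (1389373_at) gave scaled signals of 3617, 3649, 3298, 2897, 3143, 2204, 2458 and 2170.4 on arrays 2074, 2076, 2194, 2195, 2196, 2197, 2198 and 2199, the array order used throughout. Arrays 2074 and 2076 were the highest and arrays 2197, 2198 and 2199 the lowest, over an inner range of 1.64-fold. Arrays 2074 and 2076 both above the other 6 was the pattern of 13.6% of measured genes. Without them the inner range was 1.43-fold. The dimmer probe set of Smad1 (1369174_at) also had both its highest signals among arrays 2074 and 2076, 439 and 438, but it was at the floor on 3 arrays and its inner range was at least 1.32-fold.

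Smad5 was read by 4 measured probe sets that did not give 1 picture. The brightest (1390373_at) gave 2242, 4899, 4198, 4002, 5224, 3572, 5183 and 6573. Array 2074 was the lowest and array 2199 the highest, and the full range of 2.93-fold compared with an inner range of 1.46-fold. The next brightest (1388524_at) had array 2074 as its highest instead, 3595 against 2080 to 3199 on the other 7, with an inner range of 1.34-fold. On 4 of the 8 arrays these probe sets lay on the same side of their medians. Both dim probe sets of Smad5 reached 2-fold on the strength of a pair of arrays. Probe set 1378255_at gave 1219 on array 2074 and 828 on array 2076 but 140 to 391 on the other 6, with an inner range of at least 2.64-fold, which was 1.504-fold without array 2074 or without array 2076. Probe set 1369276_at gave 1220.1 on array 2195 and 652 on array 2198 but 158 to 432 on the other 6, with at least 2.16-fold, which was 1.43-fold without array 2195 or without array 2198. These are lower bounds, since 1378255_at was at the floor on 3 arrays and 1369276_at on 4.

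Smad2 and Smad3, the receptor SMADs of activin, TGF-beta and GDF9, were steady. Smad2 (1368214_at, its only probe set) gave 2870.1, 2589, 2622, 2026, 2032, 2025, 2773 and 2623. Arrays 2195, 2196 and 2197 lay within 2025 to 2032 and the other 5 within 2589 to 2870.1, an inner range of 1.37-fold. Smad3 (1389127_at) gave 4543, 3437, 3719, 3397, 3358, 3428, 1895 and 3622. Its inner range of 1.11-fold was the narrowest of the members, and 0.247% of measured genes had a narrower one. Array 2198 alone was low, so that the full range was 2.40-fold. By Dixon's criterion 1 array lay far from the other 7 in 2 of the 17 measured member probe sets, this one and a dim one of Smad6, against 6.07% of all measured probe sets. The second probe set of Smad3 (1369528_at) was not measured, being at the floor on 7 of 8 arrays.

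Smad4, the partner shared by all receptor SMADs, was steady too. Its brightest probe set (1386984_at) ran from 4359 on array 2199 to 6259.9 on array 2197, an inner range of 1.21-fold, and 3.13% of measured genes were narrower. The dimmer one (1367910_at) ran from 382 to 675, an inner range of at least 1.43-fold, with array 2197 at the low end instead of the high end.

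The inhibitory SMADs lay near the floor. Smad6, which acts mainly on BMP signals, gave 433, 372, 712, 721, 345, 418, 569 and 606 with its brightest probe set (1377467_at), an inner range of 1.92-fold. Arrays 2194 and 2195 were the highest and arrays 2076 and 2196 the lowest, although array 2195 also had the highest floor, 471 against 273 to 384 on the other 7. The second probe set of Smad6 (1394025_at) spanned an inner range of at least 1.96-fold, with 581 to 621 on arrays 2195, 2196 and 2198 and 31.9 on array 2076. It was at the floor on 2 arrays. Another (1385928_at) was at the floor on 6 of 8 arrays and the last (1375121_at) was not measured. Smad7, which acts on TGF-beta, activin and BMP signals alike, was not measured by any of its 3 probe sets: each lay above its array's median on 0 arrays and at the floor on 6, 6 and 7 of the 8. The order of the arrays for Smad7 can therefore not be read.

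Endothelial cells are known to express Smad6 and the ID genes, and the markers of that cell type were low in these samples. Of 6 listed endothelial markers 3 were measured, Pecam1, Tek and Tie1, each at the floor on 3 to 5 arrays, while Cdh5, Kdr and Vwf were not measured. Their summed signal was 3173 on array 2195, 1610.5 on array 2194 and 682 to 1010.5 on the other 6. The pair of arrays with the highest sum was also highest for Smad6, but of the 3 markers only Tek had that pair highest: Pecam1 was highest on arrays 2197 (609) and 2195 (559), with 338 on 2194, and Tie1 on arrays 2195 (1209.6) and 2198 (684), with 369.6 on 2194. Markers of other cell types also moved between arrays. The summed signal of Hbb and Alas2, genes of red blood cells, was 48897 on array 2074 and 3797 to 13218 on the other 7. Leukocyte markers ranged from 4731 to 7876 (4 of 7 measured, Ptprc not). Lyz2, the brightest of them, was highest on array 2074 (5460.1, against 1498 to 4595 on the other 7), where Csf1r was lowest (179, against 526 to 1891), with an inner range of 3.33-fold for Csf1r. Genes listed as theca markers ranged from 2993 to 8020.2 (4 of 5), mostly through Lhcgr (753 to 3729) and Nr2f2 (1980 to 3299). Cyp17a1 and Insl3 of that list were at the floor on 5 and 3 arrays. Lhcgr was lowest on arrays 2196 (753) and 2076 (1008), which were also the lowest for the granulosa marker Cyp19a1 (3582 and 987). Which cells the Lhcgr signal came from was not tested, so that sum need not follow theca cells. Smooth muscle markers ranged from 1382 to 3396 (2 of 4) and oocyte markers from 259 to 1878 (2 of 7, with Zp1 and Zp3 not measured). These sums are of signals before the floor. The oocyte sum was lowest on array 2197, where both its markers, Gdf9 (61.7) and Zp2 (198), were under the floor, and Zp2 was at the floor on 3 arrays. The part of other cell types in the values of the SMAD and ID genes was not tested.

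Id1, Id2 and Id3 are shown by their promoters as well, because they are textbook targets of the pathway. A promoter window, 250 bases before and 50 after the start of the gene, was found for 9 of the 10 members in a RefSeq table of the GRCr8 assembly, all but Smad6. Windows lie at chr3:161671314-161671613 (plus strand) for Id1, chr6:47470946-47471245 (minus strand) for Id2 and chr5:153656041-153656340 (plus strand) for Id3. They are given 5′ to 3′ on the strand of the gene, with any CAGAC, a core that SMAD3 and SMAD4 bind, and any GGCGCC, a GC-rich core that BMP SMADs bind, in capitals on either strand.
Id1: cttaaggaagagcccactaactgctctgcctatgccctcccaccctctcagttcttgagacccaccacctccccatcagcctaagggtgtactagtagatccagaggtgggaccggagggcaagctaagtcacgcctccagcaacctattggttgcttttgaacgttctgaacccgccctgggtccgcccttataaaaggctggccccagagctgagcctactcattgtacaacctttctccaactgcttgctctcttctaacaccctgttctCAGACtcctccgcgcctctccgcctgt
Id2: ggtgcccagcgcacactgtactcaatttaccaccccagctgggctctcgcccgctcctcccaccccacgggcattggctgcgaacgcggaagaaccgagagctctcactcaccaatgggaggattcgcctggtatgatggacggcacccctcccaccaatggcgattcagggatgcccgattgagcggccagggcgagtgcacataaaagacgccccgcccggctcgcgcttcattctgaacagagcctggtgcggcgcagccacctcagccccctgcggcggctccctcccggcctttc
Id3: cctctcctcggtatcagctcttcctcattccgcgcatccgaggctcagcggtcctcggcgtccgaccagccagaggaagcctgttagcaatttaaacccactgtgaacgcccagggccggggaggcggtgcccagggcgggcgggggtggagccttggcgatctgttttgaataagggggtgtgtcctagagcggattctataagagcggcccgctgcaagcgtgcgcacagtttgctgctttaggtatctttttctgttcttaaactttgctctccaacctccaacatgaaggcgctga
CAGAC was found once, in Id1, beginning 24 bases after the start, and GGCGCC in none of the 3. Among 27457 promoter windows, 50.0% held CAGAC and 11.8% GGCGCC on either strand. Of the 9 members with a window, GGCGCC was found in 3, Smad2, Smad3 and Smad7, and CAGAC in Id1 alone. The windows of those 3 genes were 69.7 to 82.7% G and C, against a median of 52.3% over all windows. GGCGCC consists of G and C alone, and the part of base content in these matches was not tested. The palindrome GTCTAGAC was found in 0 of the 9 and in 0.215% of all windows, and TGACG, the core of the cAMP response element, in Smad1 and Smad3, against 21.96% of all windows. A match is a description of the letters and not a site. Bases outside the windows were not searched, so a missing match does not show that a gene lacks the motif farther from its start.

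Id1 was lowest on arrays 2074 and 2076. Its only probe set (1387028_a_at) gave 3116, 3635, 4145, 5772, 6607, 4814, 5772 and 6574. Arrays 2196 and 2199 were the highest, and the inner range was 1.81-fold, wider than in 57.4% of measured genes. Arrays 2074 and 2076 both below the other 6 was seen in 14.5% of measured genes, and among the brightest probe sets of the members in Id1 alone, as the opposite was in Smad1 alone. Over arrays 2194 to 2199 Id1 had an inner range of 1.37-fold.

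The pattern of Id2 depended on the probe set. The brightest (1375532_at) gave 43324, 52718, 72369, 99233, 45018, 69650.2, 53904 and 43041. Arrays 2195, 2194 and 2197 were the highest and arrays 2199, 2074 and 2196 the lowest, an inner range of 1.67-fold. Arrays 2195 and 2194 also had the highest summed signal of endothelial markers, of which Tek alone had both arrays highest. The dimmer probe set (1368870_at) gave 2403, 1573, 504, 553, 1283, 1022, 1416 and 744, an inner range of 2.85-fold. There arrays 2074 and 2076 were the highest and 2194 and 2195 the lowest, nearly the reverse of the brightest set. The pair lay on the same side of their medians on 2 of 8 arrays. Among 1346 genes whose brightest pair of probe sets was above the floor on all arrays, the median was 4 of 8, and 19.5% had 2 or fewer.

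Id3 was the member with the widest spread in its brightest probe set. It (1387769_a_at, its only probe set) gave 4816, 6894, 3819, 3997, 7562, 2235, 5359 and 2986. Arrays 2196 and 2076 were the highest and arrays 2197 and 2199 the lowest, an inner range of 2.31-fold, wider than in 83.3% of measured genes. Leaving out array 2076 or 2196 gave 1.79-fold, and leaving out 2197 or 2199 gave 1.81-fold, both under 2-fold. Over arrays 2194 to 2199 the inner range was 1.79-fold.

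**Figure D3:**
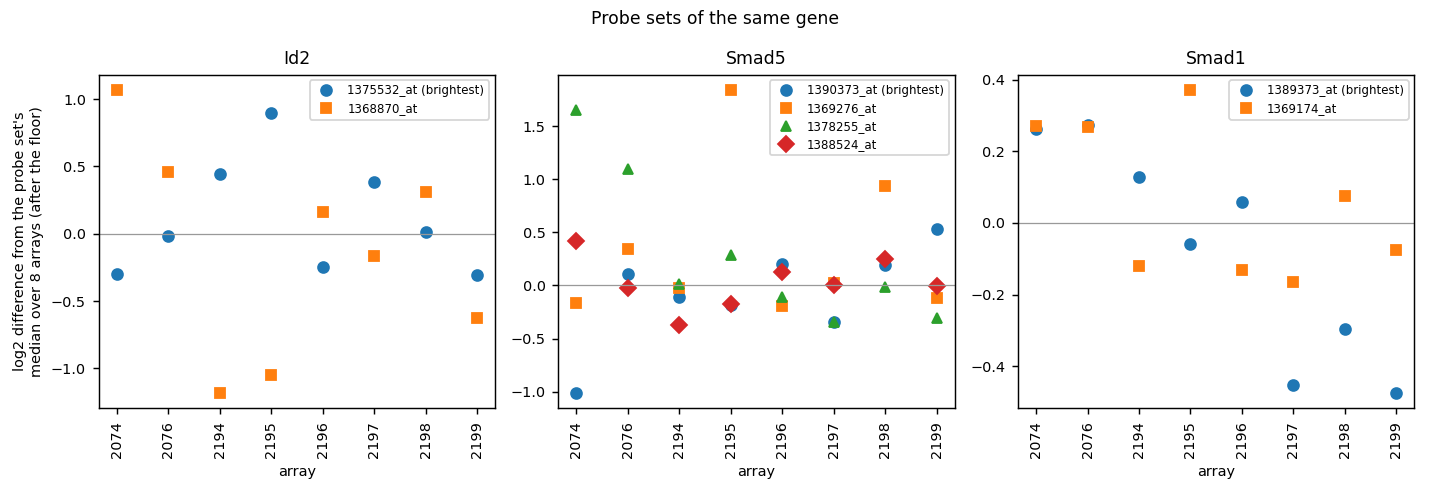
Log2 difference of each measured probe set of Id2, Smad5 and Smad1 from its own median over the 8 arrays, after the floor. The probe sets of Id2 lie on opposite sides of 0 on most arrays, and those of Smad5 differ most on arrays 2074 and 2195.

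The genes whose values went most closely with Id3 over the 8 arrays, among 7386 genes above the floor on all of them, were Chtf8 (Pearson r 0.94), Zcchc14 (0.92) and Kmt5b (0.91). The points are 8 arrays, of which 2074 and 2076 resemble each other, and over arrays 2194 to 2199 the values of r were 0.96, 0.92 and 0.89. These genes were picked for the highest r among 7386 over arrays that include 2194 to 2199. The values are therefore high by selection, and those over arrays 2194 to 2199 are no separate check. Chtf8, whose product takes part in loading the sliding clamp at replication forks, gave 1687, 1698, 1156, 1270.1, 1708, 608, 1354 and 884. Array 2197 was the lowest for Chtf8 as for Id3, and array 2196 the highest for both. The likeness is a description and was not tested.

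Whether the response genes of the pathway went together was examined within arrays 2194 to 2199, since arrays 2074 and 2076 stand apart. Smad7 was not measured, which left 6 pairs among Id1, Id2, Id3 and Smad6, each gene by its brightest probe set. The dimmer probe set of Id2, lowest on arrays 2194 and 2195 where the brightest was highest, was not used here. The values for Id2 therefore hold for its brightest probe set alone. Pearson's r ran from -0.57 for Id1 with Id2 (Spearman's rho -0.60) to 0.51 for Id2 with Smad6 (rho 0.60). By a two-sided exact permutation test 0 of the 6 pairs had an unadjusted p under 0.05, and the lowest Benjamini-Hochberg adjusted p over the 6 was 0.61 for r and 0.71 for rho (n = 6 arrays). For Id1 with Id3, r was 0.43 (rho 0.49), with an exact permutation p of 0.38 for r and 0.36 for rho (both adjusted over the 6 pairs, 0.61 and 0.71). Without the 2 arrays farthest from the median of Id1, r for Id1 with Id3 was 0.06, and that for Id1 with Id2 was -0.76. Each r taken with 2 arrays left out rests on 4 arrays. In the same way r for Id1 with Smad6 was -0.63 (-0.33 over the 6 arrays). Without those farthest from the median of Id2, r was -0.875 for Id2 with Id3 (-0.31 over the 6 arrays) and 0.61 for Id2 with Smad6. For Id3 with Smad6 it was -0.27 both ways. A p that misses the threshold does not show that the genes were unrelated.

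Other genes of the pathway reached 2-fold in a share that depended on single arrays. Of 77 listed genes 54 were measured, and 20 of these (37.0%) reached an inner range of 2-fold, against 1 of 9 SMAD and ID genes and 29.8% of all measured genes. The median was 1.82-fold, against 1.71-fold over all measured genes. Without array 2076 the number was 10 (18.5%, against 18.3% of all genes), without array 2074 it was 11 (20.4%, against 18.6%) and over arrays 2194 to 2199 it was 7 (13.0%, against 11.5%). Whichever single array was left out, 4 of the 54 (7.41%) reached it, against 7.24% of all measured genes. These lists were chosen with earlier results of these data known, and no list was tested.

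Among ligands 7 of 11 measured genes reached 2-fold, and 2 of them, Bmp2 and Tgfb2, did so whichever single array was left out. Beside these and the following counts per list, the shares of all measured genes were 29.8% and 7.24%. The lists are short, and none was tested. Inhbb had 1.30-fold without array 2074 or 2197, Gdf9 1.49-fold without 2076 or 2195 and Inhba 1.66-fold without 2076 or 2196, and Inha and Amh fell to 1.80-fold and 1.90-fold at the lowest. Bmp2, a ligand whose signal runs through Smad1 and Smad5, had the widest inner range, 3.29-fold, with 4026 on array 2074 and 3763 on array 2076, 26783 on array 2194 and 5679.96 to 13262 on the other 5. Arrays 2074 and 2076 were thus the lowest for Bmp2 as for Id1, a pattern of 14.5% of measured genes. Among arrays 2194 to 2199, array 2194 was the highest for Bmp2 but the lowest for Id1 (4145). Array 2199 was the second highest of them for both. Whether Bmp2 and Id1 went together was not tested. Of the 5 ligands above the floor on all arrays Bmp6 was the narrowest, with 1.94-fold. Receptors reached 2-fold in 3 of 8 (0 whichever array was left out), led by the co-receptor Tgfbr3 with at least 2.48-fold, while Bmpr1a, a type I receptor for BMPs, had 1.15-fold around signals of 2329 to 3867. Antagonists reached it in 2 of 6 (1, Fstl3, whichever array was left out), with Fstl3, which binds activin, at no less than 3.75-fold, Nog, which binds BMPs, at 2.15-fold or more (1.30-fold without array 2194 or 2195) and the pseudo-receptor Bambi at 1.33-fold.

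SMAD regulators reached 2-fold in 2 of 12 (0 whichever array was left out). Stub1, a ubiquitin ligase that can act on SMADs, had 8135 and 10390.5 as its signals for arrays 2074 and 2076, and 1797 to 3982 for the remaining 6, an inner range of 2.89-fold that was 1.42-fold without array 2074 or without array 2076. Trim33, another ubiquitin ligase, had 1.19-fold. Nuclear partners reached it in 0 of 5, from Ep300, a histone acetyltransferase, at 1.27-fold to the granulosa factor Foxl2 at 1.85-fold. Among the E proteins and other helix-loop-helix partners of the ID proteins, 1 of 4 reached it, Twist1 at 2.08-fold (1.61-fold at the lowest with 1 array left out), and the E protein gene Tcf4 had 1.18-fold.

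Response genes other than the members reached 2-fold in 5 of 8, and 1 of them, Junb, did so whichever single array was left out. Skil had 1.59-fold without array 2074 or 2076 and Ccn2 1.77-fold without 2196 or 2198, and the lowest values of Hey1 and Gadd45b were 1.74-fold and 1.93-fold. Junb, an AP-1 factor induced by TGF-beta and by many other stimuli, was the widest at 3.33-fold, and Tgfbi, a matrix protein, the narrowest at 1.41-fold. Junb gave 1745, 3713, 920.2, 1492, 2063, 1080.2, 3061 and 831. Arrays 2074, 2076, 2196 and 2198 were the 4 highest for Junb as for Id3, so that both lay on the same side of their medians on 8 of 8 arrays. That held for 2.4% of the other measured genes. It was the only such pair among 24 pairs of an ID gene with a response gene that were looked at, by brightest probe sets. In 22 of the others the number was 2, 4 or 6, and Id1 and Ccn2 lay on opposite sides on every array (0 of 8). Between Junb and Id1 it was 4 of 8 arrays, and between Junb and the brightest probe set of Id2 it was 2 of 8. The dimmer probe set of Id2 (1368870_at), not among the 24 pairs, had the same 4 highest arrays as Junb and Id3. The match with Junb was thus not particular to Id3.

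**Figure D4:**
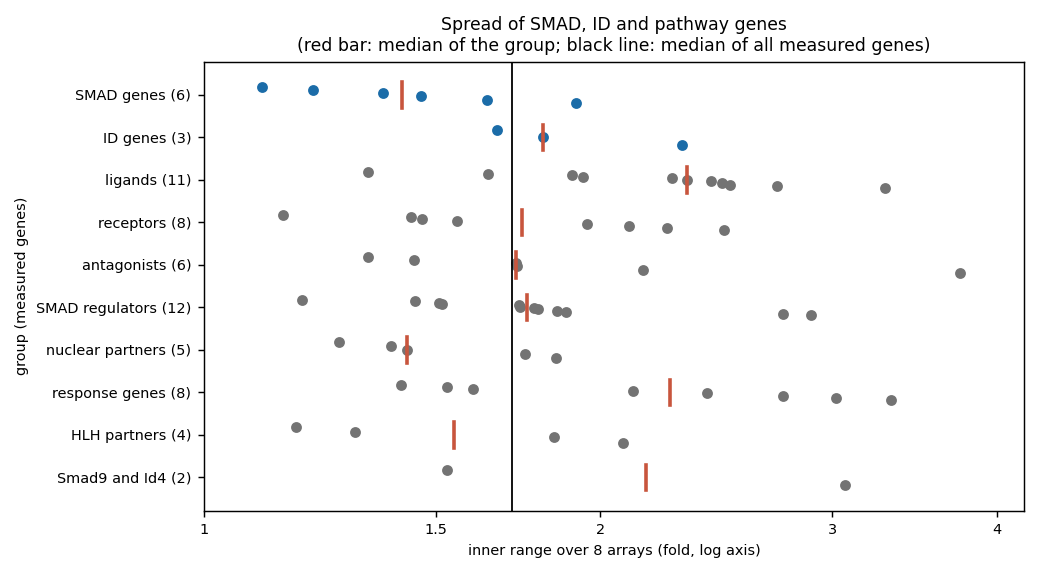
Inner range over 8 arrays (fold, log axis) of the measured SMAD and ID genes (blue) and of the measured genes of each pathway list (grey), with the number of genes in parentheses, the median of each group as a red bar and the median of all measured genes as a black line. The median of the SMAD genes, 1.41-fold, lies left of the line, and those of the ligands and the response genes, 2.33-fold and 2.26-fold, right of it.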

How the data were processed

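Total RNA was labelled with biotin and hybridised to Affymetrix rat arrays, 1 per sample, per the labels. The authors deposited linear signal intensity values. MAS5 made them, per the submitters' processing notes (version not given in the sources used here). Trimmed by 2% at either end, array means were 1500.5 to 1500.6, so scaling had preceded deposit. No detection calls were used here, and low MAS5 signals are noisy.

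From these, control probe sets were dropped, which left 31042, of which 20826 named 1 gene (a platform annotation that can be old). Log2 signals were scaled to the common median of probe sets above the array median on all 8 arrays, by 0.959 to 1.06 times, and floored as described. The brightest measured probe set stood for a gene, and signals are not compared between probe sets. No group could be assigned, so no group means, errors or group tests were computed. The members, the lists and the named genes (all members, the widest and narrowest of each list, and the 3 most like Id3) were chosen with earlier results of these data known. Functions were tested on simulated data. Python 3.11.15, numpy 2.4.6, pandas 2.3.3 and scipy 1.17.1 were used. The alternatives were other scalings, floors, filters, the full range, the mean of probe sets and arrays left out.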

Additional observations from a re-analysis of the deposited data

Results flagged for a closer look

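In 2 of the 17 measured probe sets 1 array lay far from the other 7, by the gap to its nearest neighbour as a share of the range (above Dixon's critical value for 8 arrays at the 95% level). Chance gives such a flag in about 1 of 20 sets, and 6.07% of all measured probe sets had one. By gene, in the brightest probe set, it was 1 of 9, Smad3, against 6.0% of all measured genes. Smad3 (1389127_at) had 1895 on array 2198, against 3358 to 4543 on the other 7, a ratio of 0.654. A dim probe set of Smad6 (1385928_at) had 960.0 on array 2195, with 463 on array 2196 and the other 6 arrays at the floor, a ratio of 0.580.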

How the results depend on the processing

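Of 9 measured SMAD and ID genes 1, Id3, reached an inner range of 2-fold, against 29.8% of all genes. The number was also 1 without scaling (29.3% of all genes), with quantile normalization (27.7%) and with no floor or a 25th percentile floor (39.6%). It was 1 of 8 with a filter on all 8 arrays (19.3%), 1 of 10 with no filter (22.2%) and 1 with the mean of probe sets (21.7%). It was 6 with the full range (71.4% of all genes) and 0 over arrays 2194 to 2199 alone (11.5% of all genes). With 1 array left out it was 0 to 1 (18.3 to 24.8% of all genes), and 0 without 2076, 2196, 2197 or 2199. The number of probe sets was 4 of 17 (31.7% of all probe sets), 6 with no floor or a 25th percentile floor (43.7%), 1 of 9 with the filter on all 8 arrays (20.1%), 11 with the full range (74.1%), 2 over arrays 2194 to 2199 (12.4%) and 2 to 4 with 1 array left out (20.1 to 26.3%, and 2 without 2076). The number of pathway genes, an alternative added after seeing the data, was 20 of 54, and 24 with no floor or a 25th percentile floor (44.4%, against 39.6% of all genes). It was 12 of 35 with the filter on all 8 arrays (34.3%, against 19.3% of all genes) and 42 with the full range (77.8%, against 71.4%). Over arrays 2194 to 2199 it was 7 (13.0%, against 11.5%). With 1 array left out it was 10 to 19 (18.5 to 35.2%, against 18.3 to 24.8%), namely 11 without 2074, 10 without 2076 and 13 without 2195. The full range cannot be smaller than the inner range, and leaving out arrays can only narrow it, by construction. Of 152 values of single genes under 17 alternatives, 2 moved by over 1.5 times, Smad3 (log2 1.26) and Smad5 (1.55) with the full range. That count is no measure of stability. The inner ranges of Smad2 to Smad5 were under 1.5-fold, so narrowing could not move them that far. The brightest member probe sets lay above the floor on all arrays, so lower floors could not change them, and the filters kept the same probe sets. Smad6 went from 1.92-fold to 1.48-fold with quantile normalization. Of the relations, 0 pairs passed an adjusted p of 0.05 in any setting run (exact permutation), and without array 2195 1 pair had an unadjusted p under 0.05. Settings that left out 1 of arrays 2194 to 2199 rest on 5 arrays (120 orderings), where a single pair cannot pass after adjustment over 6, so they say nothing about stability. No paired analysis was possible because the labels place no array in a group. Signals near the floor limit Smad6, Smad7 and the dim probe sets of Smad5.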

Other observations

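Of the closest relatives of the members, Smad9 passed 2-fold and Id4 did not. Smad9, the other receptor SMAD of BMP signals, gave 607, 340.5, 661, 1101, 287, 624, 513 and 1046 with its measured probe set, an inner range of 3.07-fold, which was 1.94-fold if array 2195 or 2199 was left out and 2.04-fold if 2076 or 2196 was. Arrays 2195 and 2199 were the highest and arrays 2196 and 2076 the lowest. Id4, the fourth ID gene, gave 164 on array 2074, 1391 on array 2199 and 543 to 831 on the other 6, with an inner range of 1.53-fold. Array 2074 was at the low end for Id4 as for Id1, although the Id4 signal there was under that array's floor (302). The other probe sets of Id4 were not measured.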
